A study of Mus musculus with 9 samples.

Results

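Bone marrow-derived macrophages of C57BL/6 mice aged 8 weeks were exposed to 15d-PGJ2 at 1 µM for 6 h, and their RNA was compared with that of macrophages kept in medium alone for the same 6 h. The comparison covers every gene of the deposited expression table and rests on 3 15d-PGJ2 libraries and 3 control libraries, 6 of the 9 libraries of the series. The other 3 libraries, of cells given 15d-PGJ2-PC at 1 µM for 6 h, served to estimate the spread and to show where the response to 15d-PGJ2 differed from that to the related compound, whose suffix PC the labels do not spell out. All 3 groups were cultured in RPMI medium, and the labels name no other agent, no genetic change and no inflammatory stimulus in any group. The replicates carry numbers, but the labels do not say whether they are separate cultures or animals, so a p-value here speaks only of the spread among the libraries, part or all of which may be technical.

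Levels are FPKM, sequenced fragments relative to transcript length and library depth, which can be compared between genes of different length. The table lists 18049 genes, of which 11309 reached 1 FPKM in at least 3 of the 9 libraries and were tested on the log2(FPKM + 1) scale. Fold changes are on that scale, which understates the change of genes near or below 1 FPKM, and errors of fold changes are standard errors (SE). A gene is said to have risen or fallen where limma's Benjamini-Hochberg adjusted p over all tested genes was under 0.05. Steps between the low values of short genes gave 5.30 to 5.40 M reads behind the FPKM of each library, so that 1 read in a transcript of 2000 bases was worth 0.093 to 0.094 FPKM. At 10 FPKM or more the median coefficient of variation within a group was 5.13% in the controls and 4.96% with 15d-PGJ2.

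15d-PGJ2 (15-deoxy-Δ12,14-prostaglandin J2) is a cyclopentenone prostaglandin whose ring carries an electrophilic carbon that bonds covalently to cysteine thiols. Textbook targets of such electrophiles are Keap1, which otherwise marks the transcription factor Nrf2 for degradation, and the chaperone complexes that hold the heat shock factor Hsf1 inactive. Nrf2 acts through antioxidant response elements on genes of glutathione, thioredoxin, iron and NADPH metabolism, and Hsf1 through heat shock elements on chaperone genes. Macrophages also keep many antiviral genes expressed through a low level of interferon signalling, in which Stat2 and Irf9 bind interferon-stimulated response elements.

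Short stretches of 8 promoters are shown because their genes were among the large rises and falls of the comparison and because each holds, in capitals, letters that match the antioxidant or the interferon element or a shortened form of the heat shock element. They were taken from a choice of genes with large changes, not all of which had a match. The antioxidant core was found before 4 of the 10 such genes with a window, the interferon element before 4 of 6 and the shortened heat shock unit before 7 of 10, while the full heat shock element was in none of the 4 searched for it, Hspa1b and Hspb1 among them. The 7 are not separate sequences, as the stretches of Hspa1a and Hspa1b are identical and Hspd1 and Hspe1 share 1 stretch. Stretches clear of annotated exons numbered 3 of these 7, 4 of 4 for the antioxidant core and 3 of 4 for the interferon element. The sequences come from RefSeq on build GRCm38.p6, are written in the direction of the gene, and lie within the 250 bases before a transcript start. The stretches of Hspa1b (chr17:34959310-34959367, minus strand) and Hspb1 (chr5:135887777-135887854, plus strand) hold the paired heat shock units GAANNTTC, where N is any base. Those of Gclm (chr3:122245398-122245456, plus strand), Txnrd1 (chr10:82859089-82859147, plus strand) and Prdx1 (chr4:116685441-116685499, plus strand) hold the core of the antioxidant response element, TGACNNNGC, here read on the opposite strand. The stretches of Ifit3 (chr19:34583348-34583441, plus strand), Rsad2 (chr12:26456538-26456597, minus strand) and Isg15 (chr4:156200850-156200921, minus strand) hold the interferon element, GAAA, 2 bases of any kind and GAAA, on one or the other strand, and the 3 matches of Isg15 overlap each other.
Hspa1b: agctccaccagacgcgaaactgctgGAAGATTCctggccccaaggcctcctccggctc
Hspb1: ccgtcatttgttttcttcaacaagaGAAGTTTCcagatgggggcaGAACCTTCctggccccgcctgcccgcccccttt
Gclm: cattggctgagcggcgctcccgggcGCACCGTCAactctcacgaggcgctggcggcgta
Txnrd1: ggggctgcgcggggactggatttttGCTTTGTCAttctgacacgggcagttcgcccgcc
Prdx1: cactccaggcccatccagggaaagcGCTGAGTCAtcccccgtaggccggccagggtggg
Ifit3: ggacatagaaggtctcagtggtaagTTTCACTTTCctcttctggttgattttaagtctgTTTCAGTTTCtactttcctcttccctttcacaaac
Rsad2: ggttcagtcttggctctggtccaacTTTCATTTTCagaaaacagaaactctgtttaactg
Isg15: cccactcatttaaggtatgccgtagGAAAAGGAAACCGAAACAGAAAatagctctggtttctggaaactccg

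The letters of the interferon element were searched on both strands in the 250 bases before the start of 27025 RefSeq genes and were present in 3.46% of them. They were present in 3.44% of the 9022 tested genes with such a window, in 2.8% of those not called, in 19.6% of the 296 genes that fell at least 2-fold and in 48.8% of the 41 that fell at least 4-fold. Among the 241 genes that rose at least 2-fold the share was 2.9%, and it was 0 among the 39 that rose at least 4-fold. The antioxidant core was found before 11.5% of all RefSeq genes, 14.1% of tested genes, 15.8% of the genes that rose and 12.2% of those that fell at least 2-fold, and 23.1% and 14.6% of those that rose and fell at least 4-fold. A full heat shock element (GAA, TTC and GAA, each 2 bases of any kind apart) was found before 0.514% of all genes, 0.499% of tested genes, 2.49% of those that rose at least 2-fold and 0 of those that fell as much. The paired unit (GAANNTTC or TTCNNGAA), which lies inside the full element and was searched after the result of the full element was known, was found before 14.5% of all genes, 12.3% of tested genes, 16.2% of those that rose and 16.9% of those that fell at least 2-fold, and 30.8% of those that rose and 17.1% of those that fell at least 4-fold. The ATF4 core TGATGNAA was found before 3.91% of all genes, 2.5% of tested genes, 1.66% of those that rose and 6.08% of those that fell at least 2-fold, and 7.69% and 9.76% of those that rose and fell at least 4-fold. These shares describe letters in a window and not bound sites, and no test was made of them.

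Of the 11309 tested genes 2515 rose (22.2%) and 2823 fell (25%), 47.2% in all. The counts of every list below are to be read beside these shares. Most changes were small. The median rise was 0.44 and the median fall -0.48 on the log2 scale, and 1441 of the rises and 1504 of the falls were under 0.5. At least 2-fold rises numbered 311 (2.75%) and at least 2-fold falls 387 (3.42%). Changes of at least 4-fold were called in 54 genes upward and 59 downward, and changes of at least 8-fold in 7 and 13. The large falls include markers of erythroid, epidermal and stromal cells, whose levels are given with the cell type markers below. Most of these markers reached the level needed for testing only through the controls. The median log2 fold change of all tested genes was -0.02, with 5% of genes below -0.84 and 5% above 0.78. The ranges of the 2 groups were separate in 55.1% of tested genes, and this held for every gene named below that rose or fell.

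**Figure D1:**
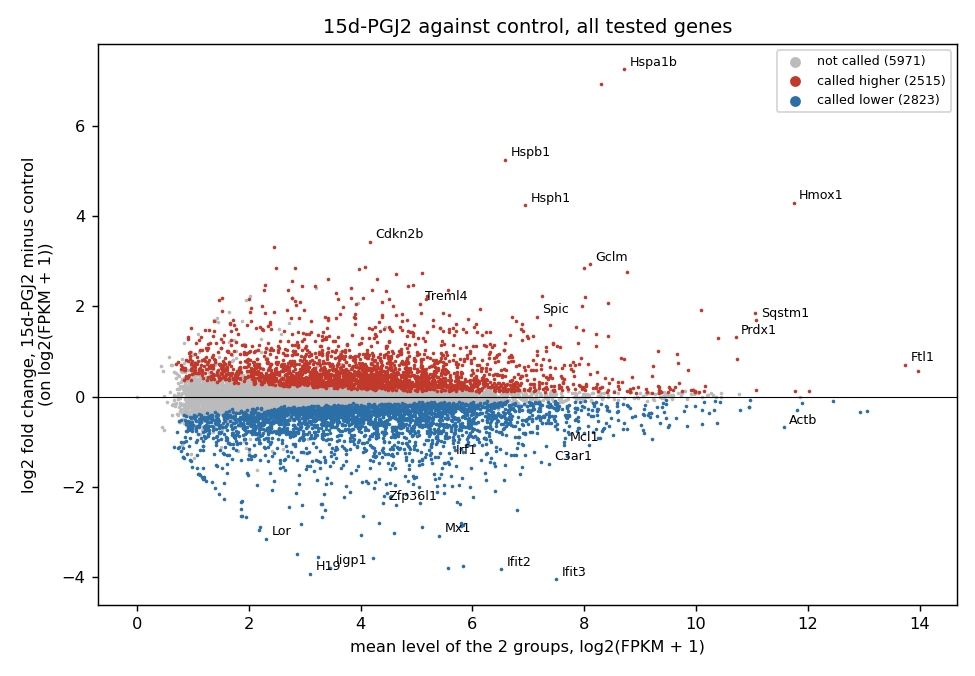
Each point is 1 tested gene. The horizontal axis gives the mean level of the control and 15d-PGJ2 groups as log2(FPKM + 1) and the vertical axis the log2 fold change, 15d-PGJ2 minus control. The 2515 genes called higher are red, the 2823 called lower blue and the rest grey, and the heat shock gene Hspa1b (7.25) and the interferon-induced gene Ifit3 (-4.05) mark the upper and lower ends.

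The genes that rose took a larger part of the measured RNA after exposure. In the control libraries they held 26.7% to 26.9% of summed FPKM, and in the 15d-PGJ2 libraries 39.0% to 39.9%. The genes that fell held 41.2% to 41.8% in the controls and 29.0% to 30.0% with 15d-PGJ2. These shares follow in direction from the calls and give only the size of the change. Levels were also divided into bands by the mean over all 9 libraries, so that a gene's own change can move it into or out of a band. Among the 142 tested genes with a mean of 500 FPKM or more, 7 rose at least 2-fold and 0 fell as much, although 33.1% of them fell. Among the 1386 genes between 50 and 500 FPKM, 64 rose and 56 fell at least 2-fold. Under 5 FPKM, 12.8% of 3334 genes rose and 16.9% fell. The share that fell was 23.1% among the 2822 tested genes of shortest genomic span and 29.1% among the 2822 of longest span, and the shares that rose were 19.1% and 23.6%.

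Chaperones of the cytosol rose together, and some were among the largest rises of the comparison. Of 10 tested Hsp70 and Hsp110 genes, which encode the ATP-driven chaperones that bind unfolded segments, 8 rose and 0 fell, with a median log2 fold change of 1.66. Among 20 genes of Hsp90 and its co-chaperones 12 rose and 0 fell (median 0.70). Hspa1b, the stress-inducible Hsp70 (Entrez 15511, chromosome 17, 34956429 to 34959238), was at 5.33, 4.32 and 3.73 FPKM in the control libraries and 654, 928 and 929 FPKM in the 15d-PGJ2 libraries. The lowest exposed library was far above the highest control, and the 15d-PGJ2 libraries differed among themselves more than the controls did. Reads may be split between Hspa1b and its near-identical copy Hspa1a (4.17 to 627 FPKM), so their separate levels are uncertain. Hsp90aa1, the inducible cytosolic Hsp90 (Entrez 15519, chromosome 12, 110691036 to 110696395), was at 105.7, 104 and 119.8 FPKM in the control libraries and 659, 787 and 822 FPKM in the 15d-PGJ2 libraries. It changed by 2.77 (SE 0.08, adjusted p = 2.53e-09), against 1.92 for the constitutive Hsp90ab1. Hspa4l, a member of the Hsp110 class, rose from 3.48 ± 0.199 to 22.8 ± 1.98 FPKM. Cofactors of the Hsp90 cycle rose less, with Ahsa1, which stimulates its ATPase, at 1.19, Ptges3 (p23) at 1.19 and St13 (Hip) at 1.01.

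DnaJ proteins deliver clients to Hsp70, and this family was divided: 14 of 34 tested genes rose and 5 fell (median 0.11). The cytosolic members Dnaja1 (52.5 to 249 FPKM), Dnajb1 (13.6 to 51.9), Dnajb2 (6.21 to 35.5) and Dnajb4 (5.57 to 42.1) all rose. Genes of small heat shock proteins, Bag nucleotide exchange factors and heat shock factors rose in 5 of 13 cases and fell in 1 (0 without control replicate 1 or 2 or 15d-PGJ2 replicate 1). The small heat shock gene Hspb1 (Entrez 15507, chromosome 5, 135887919 to 135889563) was at 5.0, 3.23 and 3.44 FPKM in the control libraries and 139.5, 191 and 226 FPKM in the 15d-PGJ2 libraries, and the groups did not overlap. Bag3, which links Hsp70 to selective autophagy, rose from 14.5 ± 2.80 to 78.1 ± 9.36 FPKM and Bag2 from 0.463 to 5.55 FPKM. Of the heat shock factors in this list Hsf1 rose by 0.53 and Hsf2 by 1.27. In a list of the TRiC chaperonin, which folds actin and tubulin, and prefoldin, 9 of 14 tested genes rose with 0 falls (median 0.33). Every TRiC subunit gene of the list rose, led by Cct3 (51.1 to 113 FPKM) and Cct7 (52.9 to 102). The prefoldin genes were mostly not called. In mitochondria the chaperonin pair Hspd1 and Hspe1 rose from 57.2 to 178 and from 72.2 to 181 FPKM, and 9 of 16 mitochondrial chaperone and protease genes rose with 0 falls.

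The proteasome, which degrades ubiquitin-tagged proteins, showed opposite movement of its constitutive and its interferon-induced subunits. All 14 tested genes of the 20S core rose (median 0.69). A second list held the 19S regulatory particle, assembly factors of the 19S particle and of the 20S core, and a separate activator. In it 23 of 27 genes rose while 1 fell (median 0.95). The 3 genes not called there were assembly factors of the 20S core. All 5 genes of the immunoproteasome and the PA28 activator fell (median -0.59). Psmd5, a 19S assembly chaperone (Entrez 66998, chromosome 2, 34852087 to 34870965), had the largest rise of these lists, with 20.3, 18.5 and 17.9 FPKM in the control libraries and 59.5, 58.9 and 54.8 FPKM in the 15d-PGJ2 libraries. The groups did not overlap, and the change was 1.56 (SE 0.06, adjusted p = 8.53e-09). Psmb9, the catalytic subunit that replaces a constitutive one in the immunoproteasome (Entrez 16912, chromosome 17, 34182030 to 34187330), was at 102, 86.8 and 81.1 FPKM in the control libraries and 51.4, 43.1 and 43.3 FPKM in the 15d-PGJ2 libraries. Every exposed library was below every control, a fall of 0.95 (SE 0.09, adjusted p = 7.72e-06). Psmb8 and Psmb10, the other 2 catalytic replacements, fell by 0.59 and 0.94, and the activator genes Psme1 and Psme2 by 0.38 and 0.44. In the core, Psma6 had the smallest value (0.19) and was not called without control replicate 2 (adjusted p = 0.0516).

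**Figure D2:**
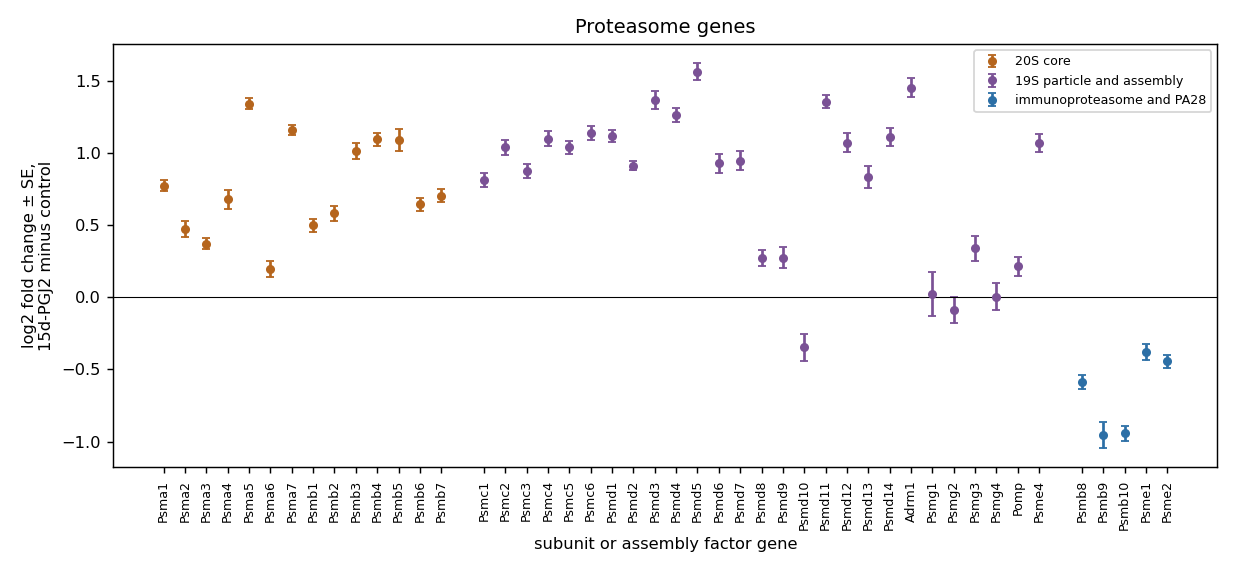
Log2 fold changes (15d-PGJ2 minus control, points) with their standard errors (bars) for the tested proteasome genes, on 1 axis in 3 groups. The 14 genes of the 20S core all lie above 0 and the 5 immunoproteasome and PA28 genes all lie below 0. The group of the 19S particle, which also holds 20S assembly factors and a separate activator, lies mostly near 1.

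Genes that feed substrates to the proteasome rose with it. Of 38 tested genes of ubiquitin, the p97 segregase and aggregate handling, 22 rose and 1 fell, or 2 without 15d-PGJ2-PC replicate 3 (median 0.39). Sqstm1, the receptor p62 that carries ubiquitinated cargo to autophagosomes and also binds Keap1 (Entrez 18412, chromosome 11, 50200152 to 50210820), was at 1002, 1048 and 982 FPKM in the control libraries and 3133, 3357 and 3329 FPKM in the 15d-PGJ2 libraries. It was already among the abundant transcripts of the controls, and the groups did not overlap. The polyubiquitin gene Ubb rose from 1216 ± 81.2 to 2169 ± 117 FPKM. Zfand2a, a stress-induced protein that binds the proteasome, rose from 28.2 ± 0.520 to 111 ± 9.98 FPKM, the p97 cofactor Nploc4 from 26.1 to 59.0 and the p97-recruiting factor Ubxn4 from 25 to 73.5 FPKM. Autophagy genes rose in 19 of 49 cases and fell in 6, or 3 without 15d-PGJ2 replicate 2. Among them Gabarapl1, of the autophagosome membrane, changed by 1.58, the initiating kinase Ulk1 by 0.84 and the cargo receptor Tax1bp1 by 0.63.

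The regulators of the electrophile response themselves rose in 9 of 13 cases and fell in 1 (2 without control replicate 2 or 15d-PGJ2 replicate 1), without a change called in Nrf2 mRNA. Nfe2l2, which encodes Nrf2, had 77.5 and 78.6 FPKM (adjusted p = 0.74). Its partners rose, Mafg from 35.6 ± 2.09 to 98.4 ± 6.66 FPKM and Maff from 1.57 to 6.81 FPKM, and so did the repressor genes Bach1 (49.9 to 75.5) and Keap1 (35.7 to 42.8). Trim21, a ubiquitin ligase that is also induced by interferon, fell by 1.28.

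Glutathione metabolism rose from cystine uptake to conjugate export, in 11 of 22 tested genes, with 2 falls (median 0.38). Both subunits of glutamate-cysteine ligase, the rate-limiting enzyme, rose. The modifier gene Gclm changed by 2.93, and the catalytic gene Gclc (Entrez 14629, chromosome 9, 77754535 to 77794489) was at 7.32, 7.79 and 8.65 FPKM in the control libraries and 44.7, 48.6 and 48.9 FPKM in the 15d-PGJ2 libraries. Gss, which makes glutathione in the next step (Entrez 14854, chromosome 2, 155563181 to 155592810), was at 9.04, 9.10 and 7.22 FPKM in the control libraries and 54.4, 49.9 and 48.4 FPKM in the 15d-PGJ2 libraries. For both genes every exposed library was far above every control. Gsr, which reduces oxidised glutathione, rose from 75.7 ± 2.89 to 192 ± 8.54 FPKM and Abcc1, an exporter of conjugates, from 47.0 ± 1.47 to 161 ± 2.09 FPKM. Ggt5, which cleaves extracellular glutathione and leukotriene C4, rose from 1.84 to 10.51 FPKM. Glutathione transferases and electrophile reductases rose in 7 of 14 cases and fell in 2 (1 without control replicate 2 or 3 or 15d-PGJ2 replicate 2), with Gstm1 at 60.5 to 173 and Gsta3 at 5.02 to 25.8 FPKM. The 2 prostaglandin reductase genes of the list moved apart, as Ptgr1 rose by 2.24 and Ptgr2 fell by 0.57.

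Thioredoxin, peroxiredoxin and related genes rose in 13 of 24 cases and fell in 3. Among enzymes that remove peroxides Prdx1 (962 to 2391 FPKM), Prdx6 (28.8 to 83.1) and catalase (Cat, 193 to 489) rose, as did superoxide dismutase 1 (Sod1, 461 to 735), which turns superoxide into peroxide. The peroxiredoxin genes Prdx2, Prdx3, Prdx4 and Prdx5 were not called, and the glutathione peroxidase genes Gpx1 and Gpx3 fell. Txnip, the thioredoxin-binding protein that also restrains glucose uptake (Entrez 56338, chromosome 3, 96557957 to 96561857), went the other way, at 217, 218 and 216 FPKM in the control libraries and 108, 94.1 and 101 FPKM in the 15d-PGJ2 libraries. The groups were apart in all libraries, and the fall was 1.10 (SE 0.05, adjusted p = 4.08e-08). NADPH, the reductant these enzymes draw on, is made by the pentose phosphate pathway and malic enzyme, and 11 of 22 genes rose and 4 fell. Pgd rose from 165 ± 5.26 to 429.5 ± 6.30 FPKM, Taldo1 from 287 to 521, G6pdx from 105 to 174 and Tkt from 108 to 162 FPKM. A list of quinone, carbonyl and aldehyde enzymes, which also held a ferritin gene that rose, had 12 rises and 4 falls in 26 cases. Among them Akr1c13 rose from 32.4 to 95.5 FPKM, the formaldehyde-detoxifying esterase Esd from 115 to 249.6 and the biliverdin reductase Blvrb from 423 to 852. The electron carrier gene Cyb5a, among the largest rises of abundant transcripts, was at 130.2, 132 and 131 FPKM in the control libraries and 575, 557 and 535 FPKM in the 15d-PGJ2 libraries.

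Haem degradation and transport rose beside the haem oxygenase gene Hmox1. The lysosomal haem transporter Slc48a1 (Entrez 67739, chromosome 15, 97784365 to 97792692) was at 133, 137 and 129 FPKM in the control libraries and 385, 372 and 362 FPKM in the 15d-PGJ2 libraries, with no overlap of groups. The porphyrin transporter Abcb6 rose from 4.19 ± 0.392 to 19.4 ± 0.627 FPKM. Over the whole list of haem and iron genes 12 of 32 rose and 8 fell. Hmox1 itself (Entrez 15368, chromosome 8, 75093618 to 75100593) was at 324, 339.8 and 333 FPKM in the control libraries and 6486, 6682 and 6453 FPKM in the 15d-PGJ2 libraries. Of 23 metallothionein and metal transporter genes 9 rose and 5 fell. The brain-type metallothionein gene Mt3 was listed at 0, 0 and 0 FPKM in the controls and at 1.41, 1.78 and 2.48 FPKM with 15d-PGJ2. The copper transporter Slc31a2 and the zinc transporters Slc39a1 and Slc39a13 fell by 0.82, 0.65 and 0.71, while the zinc importer Slc39a4 rose by 0.87.

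**Figure D3:**
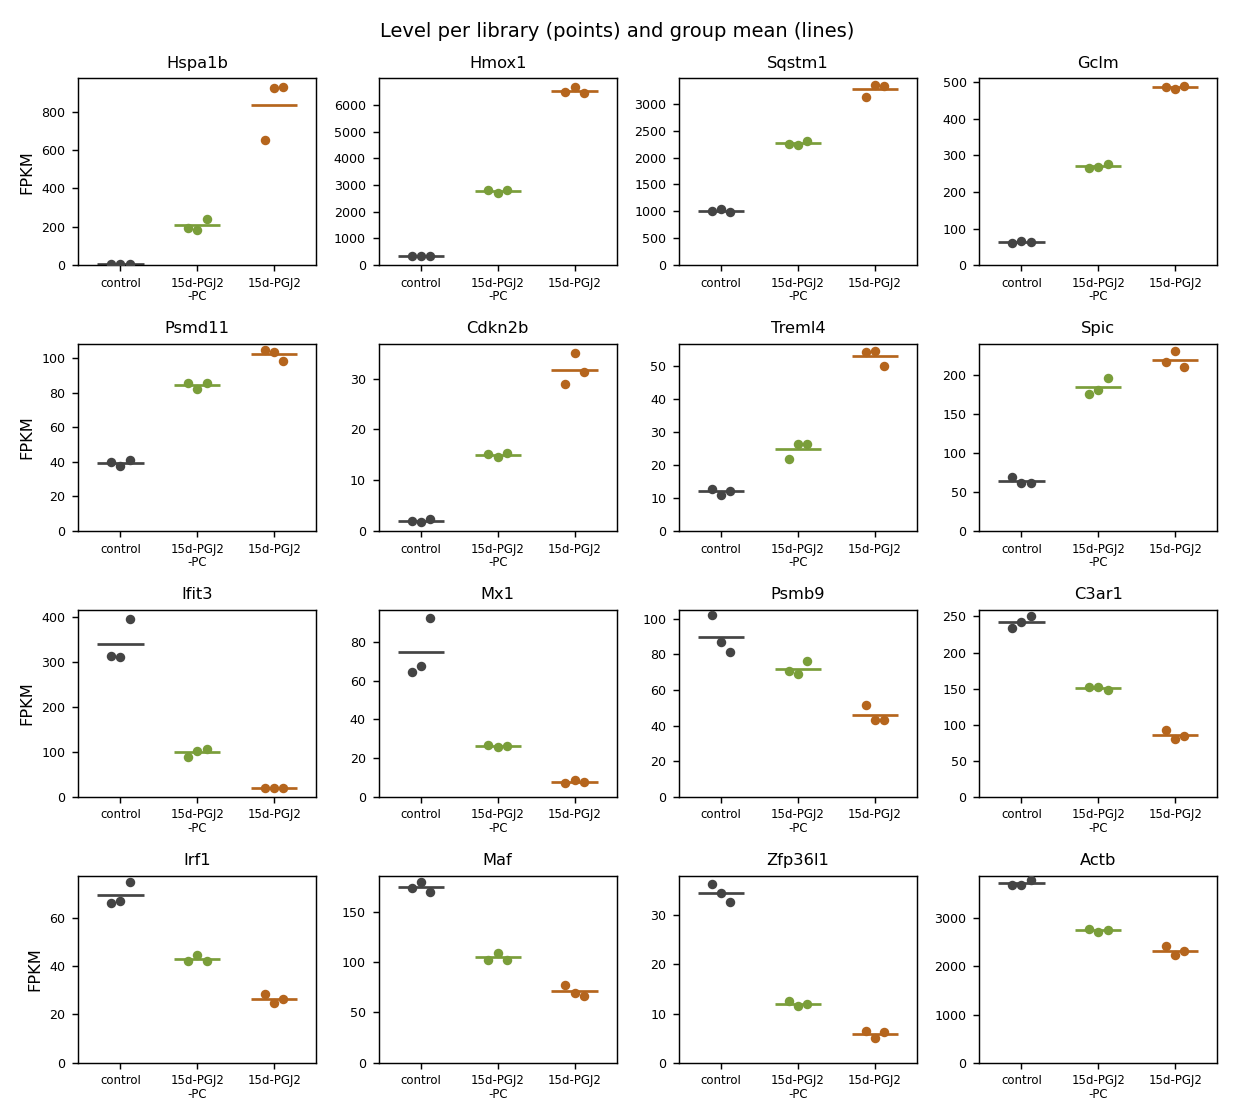
Level in FPKM (vertical axes, each starting at 0) of 16 genes in each of the 9 libraries (points) with the group mean (lines), for the control, 15d-PGJ2-PC and 15d-PGJ2 groups. Genes of the top 2 rows rose and genes of the bottom 2 rows fell with 15d-PGJ2, and for each gene the control and 15d-PGJ2 points do not overlap.

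Interferon-induced genes fell almost without exception. Of 53 tested antiviral effector genes (Ifit, Oas, Mx, Ifitm and others) 48 fell and 0 rose (median -1.40), of 17 Schlafen and PYHIN genes 16 fell (median -1.76), and of 15 guanylate-binding protein and immunity-related GTPase genes 14 fell and 1 rose (median -2.14). The single rise was that of Irgq. The letters of the interferon element were present before 12 of the 39 antiviral effector genes with a RefSeq window (30.8%), 9 of 15 Schlafen and PYHIN genes (60%), 8 of 10 GTPase genes (80%) and 0 of the 5 immunoproteasome and PA28 genes. Mx1, a dynamin-like GTPase that blocks viral nucleocapsids (Entrez 17857, chromosome 16, 97447035 to 97462906), was at 64.6, 67.4 and 92.2 FPKM in the control libraries and 7.26, 8.48 and 7.68 FPKM in the 15d-PGJ2 libraries. The highest exposed library was far below the lowest control, and the fall was 3.09 (SE 0.11, adjusted p = 8.53e-09). Slfn5, whose reads cannot be told apart from those of its antisense gene where counting ignores strand (Entrez 327978, chromosome 11, 82951349 to 82964850), was at 91.1, 90.0 and 109 FPKM in the control libraries and 12.5, 11.5 and 13.2 FPKM in the 15d-PGJ2 libraries. Usp18, which removes Isg15 from proteins and blocks the interferon receptor, fell from 96.5 ± 9.16 to 13 ± 2.32 FPKM. Rsad2 (viperin) fell from 189 to 31.7, Isg15 from 176 to 53, Oasl2 from 91.3 to 16.8 and the GTPase Ifi47 from 59.4 to 7.14 FPKM. The abundant membrane effector Ifitm3 fell less, from 666 to 398 FPKM, and Ifi27l2a least of the named members, by 0.20.

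Genes of interferon signalling fell too, and whether they had a part in the falls above was not tested. Of 32 tested genes of interferon receptors, Jak-Stat signalling and Irf factors 23 fell and 1 rose (median -0.47). The single rise was not called without the intensity trend, nor without control replicate 2 or any 1 of the 15d-PGJ2 replicates. Irf1, a factor that interferons induce and that binds the promoters of their target genes (Entrez 16362, chromosome 11, 53770014 to 53778374), was at 66.0, 67.2 and 74.9 FPKM in the control libraries and 28.5, 24.6 and 26.5 FPKM in the 15d-PGJ2 libraries, and every exposed library was below every control. Irf9, the DNA-binding part of the complex of type I interferon signalling, fell from 54.0 ± 0.970 to 26.3 ± 0.406 FPKM, Irf5 from 175 to 108 and Irf8 from 104 to 65.4 FPKM. Irf7, which amplifies interferon production, fell by 0.42, and Irf3 was at 21.7 and 24.6 FPKM (adjusted p = 0.128). The interferon gene Ifnb1 was listed at 0, 0 and 0 FPKM in the controls and 0.240, 0.240 and 0.240 FPKM with 15d-PGJ2 and was too low to be tested. Cytosolic sensors of nucleic acids fell in 19 of 29 cases and rose in 5 (median -0.48). Among them were the RNA helicases Ddx58 (RIG-I, 66.2 to 14.4 FPKM) and Dhx58 (65.1 to 15.8), the RNA-activated kinase Eif2ak2 (35.3 to 8.62), the DNA exonuclease Trex1 (114 to 34.3) and the kinase Ikbke (156 to 88.6). Tripartite motif genes fell in 15 of 37 cases and rose in 7, with Trim30a and Trim34a falling by 1.53 and 1.90.

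Antigen presentation fell to a smaller extent. Of 23 MHC class I and peptide-loading genes 15 fell and 4 rose (median -0.31), and of 22 class II and costimulatory genes 11 fell and 4 rose (median -0.35). The 4 rises of the class I list were all of class I heavy chain genes, while other heavy chain genes fell. The nonclassical class I gene H2-T24 fell from 70.2 ± 4.77 to 17.4 ± 2.08 FPKM, the loading factor Tapbp from 144 to 100.1 and the peptide transporter Tap1 from 96.4 to 50.3 FPKM. The invariant class I chain B2m, at 3969 and 3609.9 FPKM, fell by 0.14 only. Inhibitory ligands fell as well, Vsir (VISTA) from 152 ± 5.93 to 61.0 ± 5.57 FPKM and Cd274 (PD-L1) from 114 to 78.7 FPKM, whereas the costimulatory ligand Icosl rose from 15 to 27.9 FPKM and the adhesion molecule Icam1 by 0.26.

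Receptors and adaptors of innate immunity fell more often than they rose. Toll-like receptors, adaptors and kinases fell in 22 of 34 cases and rose in 4 (median -0.34). The endosomal receptors Tlr8 (39.9 to 16.3 FPKM) and Tlr9 (53.3 to 21.8), the adaptor Myd88 (116 to 69.4) and the brakes Cd180 (116 to 53.1) and Irak3 (78.2 to 47.8) were among those that fell. Inflammasome and pyroptosis genes fell in 15 of 23 cases and rose in 4 (median -0.36). Pycard, the adaptor ASC, fell from 51.2 ± 2.42 to 21.9 ± 0.454 FPKM and Gsdmd, the pore-forming gasdermin, from 52.3 ± 1.80 to 27.1 ± 0.779 FPKM. NF-κB subunits, inhibitors and regulators were evenly divided, with 8 of 28 higher and 9 lower, beside 22.2% and 25% of all tested genes. Bcl3 fell by 1.05 and Tnip1 by 0.32, while Ikbkg, the kinase scaffold NEMO, rose by 0.80 and the RNase gene Zc3h12c by 1.16.

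Receptors of the macrophage surface mostly fell, by very different amounts. Chemokine and chemoattractant receptors fell in 17 of 22 cases and rose in 1 (median -0.85). C3ar1, the receptor of complement fragment C3a (Entrez 12267, chromosome 6, 122847140 to 122856157), was at 234, 242 and 250.3 FPKM in the control libraries and 92.8, 79.6 and 84.2 FPKM in the 15d-PGJ2 libraries, and the highest exposed library was far below the lowest control, a fall of 1.49 (SE 0.05, adjusted p = 6.56e-09). C5ar1, for fragment C5a, fell from 66.2 ± 2.88 to 23.2 ± 1.59 FPKM, the chemerin receptor Cmklr1 from 28.4 to 9.65 and the acid-sensing receptor Gpr65 from 42.5 to 14.2 FPKM. Purinergic, lipid mediator and adrenergic receptors fell in 13 of 23 cases and rose in 5 (median -0.65), including the UDP receptor P2ry6 (86.4 to 24.3 FPKM), the ATP-gated channel P2rx7 (33.2 to 14.8) and the lysophosphatidic acid receptor Lpar5 (25.7 to 9.65).

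Fc, Siglec, Trem, Cd300 and paired receptors fell in 25 of 33 cases with 1 rise (median -0.62). The IgG receptor Fcgr4 fell from 191 ± 8.42 to 80.5 ± 2.33 FPKM, the inhibitory receptor Pirb from 248 to 148, the don't-eat-me receptor Sirpa from 686 to 393 and the sialic acid receptor Siglec1 from 79.4 to 37.4 FPKM. The exception was Treml4, a Trem-like receptor that binds dead cells (Entrez 224840, chromosome 17, 48264200 to 48275607), at 12.7, 11 and 12.1 FPKM in the control libraries and 54.2, 54.3 and 50.04 FPKM in the 15d-PGJ2 libraries. Its groups did not overlap, and the change was 2.06 (SE 0.08, adjusted p = 1.02e-08). All members of the Ms4a list but 1 fell (7 of 8), among them Ms4a4c (47.6 to 16.1 FPKM), Ms4a6c (362 to 209) and Ms4a7 (551 to 411). Scavenger and C-type lectin receptors moved both ways, 8 up and 16 down of 29. The scavenger receptors Marco and Cd36 rose by 0.46 and 0.38 and the lectin Clec4d from 164 to 265 FPKM, whereas Clec2d fell from 29.3 ± 1.83 to 6.44 ± 0.611 FPKM, Clec4a3 from 155 to 62.5 and Clec12a from 147 to 79.0 FPKM. Integrins, tetraspanins and adhesion molecules rose in 10 and fell in 17 of 32 cases, with the tetraspanin Cd81 rising from 105 ± 7.36 to 239 ± 5.07 FPKM and the integrin chains Itga9, Itgb5 and Itgal falling by 1.10, 0.96 and 0.70. Cytokine and TNF receptors were near balance (10 up and 12 down of 28). The death receptor Fas rose from 10.3 to 22.1 FPKM, and Tnfrsf14, Il10ra and Il6ra fell by 1.5, 0.70 and 0.59.

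**Figure D4:**
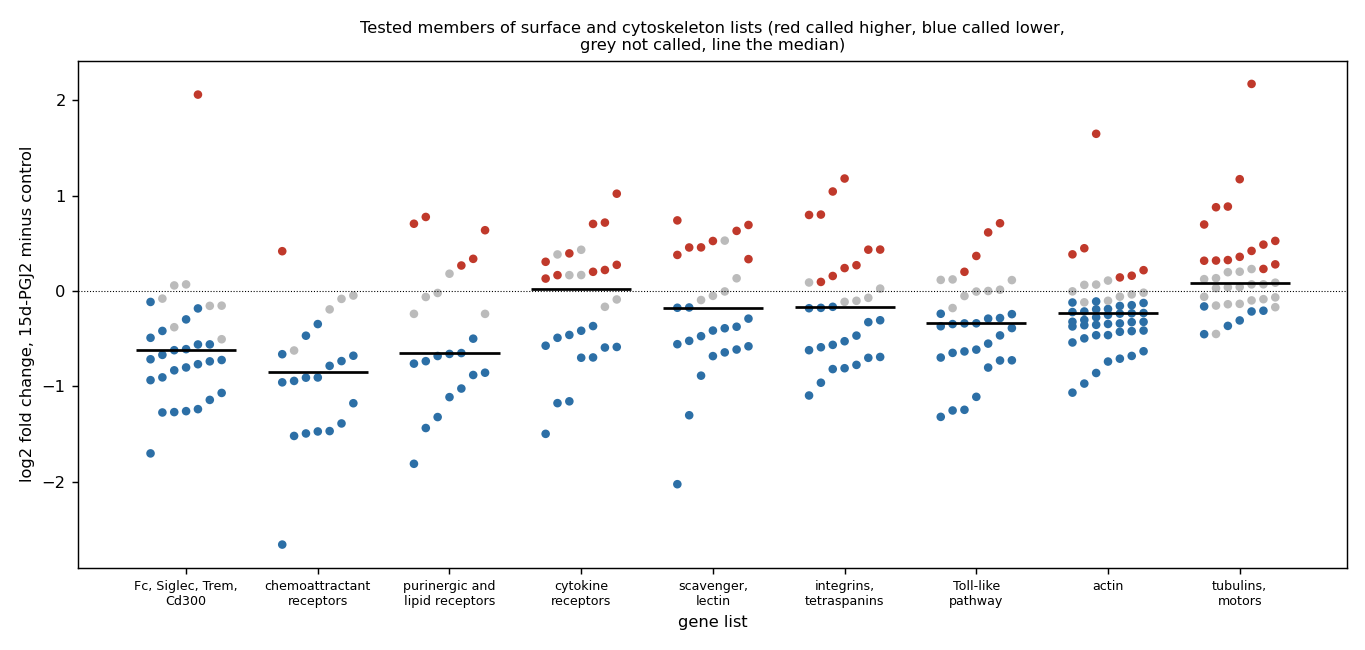
Log2 fold change (vertical axis, 15d-PGJ2 minus control) of each tested member of 9 lists of surface, innate and cytoskeleton genes, red where called higher, blue where called lower and grey where not called, with the list's median as a line. Medians run from -0.85 for chemoattractant receptors to 0.08 for tubulins and motors, against -0.02 for all tested genes.

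Among secreted factors falls also outnumbered rises. Cytokines and TNF ligands fell in 16 of 26 cases and rose in 5, or 3 without control replicate 1 or 15d-PGJ2 replicate 1 or 2 (median -0.54). Il15, which sustains NK and memory T cells, fell from 14 ± 1.90 to 4.50 ± 1.18 FPKM, Il16 from 38.3 to 15.6 and lymphotoxin β (Ltb) from 78.9 to 33.3 FPKM, while Clcf1, a cytokine of the IL-6 family, rose from 1.69 to 9.23 FPKM. Tnf was at 26.7 and 24.9 FPKM (adjusted p = 0.34). Chemokine ligands fell in 9 and rose in 2 of 18 cases. Cxcl10, a ligand induced by interferon, fell from 61.9 ± 16.2 to 16.5 ± 1.5 FPKM and Cxcl16 by 0.51, and Cxcl2 rose by 2.60. Complement and coagulation genes fell in 15 of 26 cases and rose in 4. The 3 chains of C1q, abundant macrophage products, fell by 0.72 (C1qa), 0.59 (C1qb) and 0.61 (C1qc). Procr, the endothelial protein C receptor (Entrez 19124, chromosome 2, 155751125 to 155755478), rose, with 7.05, 8.79 and 8.10 FPKM in the control libraries and 58.3, 59.1 and 59.6 FPKM in the 15d-PGJ2 libraries. Metalloproteases and cathepsins fell in 17 of 28 cases and rose in 4. Mmp19 rose from 10.9 ± 0.557 to 40.9 ± 2.68 FPKM, and Mmp14, Ctsc and Lgmn fell by 1.10, 0.90 and 0.59.

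Growth factor and receptor genes fell in 17 of 29 cases and rose in 3 (median -0.35). Csf1r, the receptor of the factor on which these macrophages depend, fell from 399 ± 6.44 to 268 ± 13.9 FPKM. The cytokine receptor chain genes Csf2rb and Csf2rb2 fell by 1.06 and 1.42, with reads possibly shared between these near copies. The stress-induced cytokine gene Gdf15 (Entrez 23886, chromosome 8, 70629393 to 70632470) rose and was at 118, 127 and 107 FPKM in the control libraries and 318, 368 and 346 FPKM in the 15d-PGJ2 libraries. In the list of CDK inhibitors, p53 targets and checkpoint genes 13 of 35 rose and 8 fell, beside 22.2% and 25% of all tested genes. The falls were near that share. Cdkn2b, whose product p15 blocks cyclin D kinases (Entrez 12579, chromosome 4, 89306289 to 89311032), rose and was at 1.94, 1.82 and 2.35 FPKM in the control libraries and 28.9, 35.1 and 31.4 FPKM in the 15d-PGJ2 libraries. Its groups were far apart, and Cdkn1a (p21) fell from 187 to 140 FPKM. The stress kinases Plk2 and Plk3 rose from 26.8 to 75.6 and from 1.81 to 14.3 FPKM, and Gadd45g from 12.2 to 57.5 FPKM. Trp53 itself was at 41.5 and 44.6 FPKM (adjusted p = 0.127). Cell cycle and replication genes fell in 20 of 52 cases and rose in 3, with the D cyclins Ccnd1 and Ccnd3 falling by 1.41 and 0.78.

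Genes of cell death moved on both sides of the Bcl2 family, with 13 up and 19 down of 43. Mcl1, a short-lived protector of myeloid cells (Entrez 17210, chromosome 3, 95656944 to 95663179), was at 271, 269.7 and 266 FPKM in the control libraries and 132, 127 and 125 FPKM in the 15d-PGJ2 libraries, and Bcl2l1 (Bcl-xL) fell by 0.76. The pro-apoptotic genes Pmaip1 (Noxa) and Bax rose by 1.23 and 0.29, and the necroptosis effector Mlkl by 0.96. The list as a whole had no single direction. Its other pro-apoptotic genes moved both ways, and its protective genes did so too. The adaptor Fadd fell by 0.78.

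Early-response transcription factors were mixed. Of 27 AP-1, ATF/CREB and Egr genes 12 rose and 9 fell: Fosl1 rose from 0.740 to 5.34, Atf5 from 109 to 195 and Jdp2 from 23.9 to 43.4 FPKM, Jun and Atf3 by 0.24 and 0.30, and Fos fell from 7.64 to 3.67 FPKM. Myc rose by 0.97 among 31 Krüppel-like, Myc and E-box factors (10 up, 8 down). The kinase gene Map2k3 rose from 17.9 to 45.2 FPKM and Map3k8 fell by 0.64, in a MAP kinase list with 12 up and 13 down of 34. Of 18 phosphatases and brakes of that cascade 6 rose and 4 fell. The shares of all tested genes were 22.2% higher and 25% lower. The falls among the E-box factors and among the phosphatases and brakes were near that share. Dusp1 rose by 0.73 and Dusp7 fell from 15.4 ± 0.840 to 5.73 ± 0.457 FPKM. PI3K, mTOR and G-protein signalling genes fell in 35 of 63 cases and rose in 9, among them the leukocyte subunits Pik3cg and Pik3r5, which fell by 0.85 and 0.65.

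In a list of macrophage lineage factors, nuclear receptors and a few general factors 20 of 40 genes fell and 12 rose. Maf, a large Maf factor of macrophages (Entrez 17132, chromosome 8, 115703253 to 115706894), was at 173, 179.8 and 169 FPKM in the control libraries and 76.9, 68.8 and 66.3 FPKM in the 15d-PGJ2 libraries. All exposed libraries lay below all controls. The master factor Spi1 (PU.1) fell from 535 to 389.9 FPKM, a smaller change of -0.46, and the sterol-sensing receptor Nr1h3 by 1.17. Spic, the factor of iron-recycling red pulp macrophages whose gene is released by Bach1 upon haem (Entrez 20728, chromosome 10, 88675269 to 88683023), rose, with 69.1, 61.1 and 61.6 FPKM in the control libraries and 217, 231 and 210.4 FPKM in the 15d-PGJ2 libraries. Cebpb rose from 153 to 246 and Ppard from 9.92 to 25.7 FPKM. Pparg, the receptor for which 15d-PGJ2 is a known ligand, was at 12 and 11.5 FPKM (adjusted p = 0.701).

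Chromatin and polymerase genes stayed closer to the background: 15 of 62 chromatin modifiers rose and 17 fell, and of 60 polymerase II, mediator and elongation genes 15 rose and 12 fell. The histone demethylase Kdm3a rose by 0.93 and the DNA methyltransferase Dnmt3a fell by 0.56, while its catalytically inactive relative Dnmt3l rose from 1.99 ± 0.235 to 17.4 ± 2.33 FPKM. The noncoding RNA 7SK (Rn7sk), which sequesters the elongation kinase P-TEFb, rose from 92.2 ± 16.0 to 422 ± 8.04 FPKM.

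RNA processing and translation genes rose more often than they fell, whereas 22.2% of all tested genes rose and 25% fell. Splicing regulators rose in 20 of 57 cases and fell in 10, with Srsf2 at 74.3 to 130 FPKM. Nucleolar factors of ribosome biogenesis rose in 17 of 57 cases and fell in 0, by modest amounts (median 0.12). Gnl3 (nucleostemin) changed by 0.92, Wdr75 by 0.78 and the helicase Ddx21 by 0.34. Translation initiation and elongation factors rose in 26 of 56 cases and fell in 8, including Eif5 (63.7 to 109.9 FPKM), Eif3j1 (23.5 to 42.3) and Eef1g (284 to 378). The reinitiation factor Denr fell by 0.83. Aminoacyl-tRNA synthetases and amino acid transporters rose in 16 of 38 cases and fell in 4, with Eprs rising from 58.7 ± 2.66 to 113 ± 2.75 FPKM and Aars from 114 ± 1.34 to 185 ± 4.99 FPKM.

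Regulators of mRNA decay changed little as a list (8 up and 8 down of 52), but Zfp36, Zfp36l1 and Zfp36l2, which bind AU-rich elements and destabilise cytokine mRNAs, fell. Zfp36l1 (Entrez 12192, chromosome 12, 80107760 to 80113013) was at 36.4, 34.6 and 32.6 FPKM in the control libraries and 6.51, 4.92 and 6.28 FPKM in the 15d-PGJ2 libraries. The fall was 2.37 (SE 0.09, adjusted p = 9.83e-09), with no overlap. Zfp36 and Zfp36l2 fell by 0.36 and 0.47.

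Lists of central metabolism moved both ways. Among all tested genes 22.2% rose and 25% fell. Glycolysis and lactate genes rose in 14 and fell in 9 of 35 cases. Pgk1 rose from 172 to 261, Pgam1 from 152 to 235 and Pkm, the last ATP-making step, from 555 to 1072 FPKM. In the tricarboxylic acid cycle and its carriers 9 rose and 9 fell of 28. Pyruvate carboxylase (Pcx), which refills the cycle with oxaloacetate, rose from 1.78 ± 0.523 to 6.78 ± 0.720 FPKM and citrate synthase (Cs) by 0.39, and the dicarboxylate carrier Slc25a10 fell by 0.81. Fatty acid oxidation and lipid droplet genes rose in 7 and fell in 9 of 37 cases, near the shares of all tested genes. Oxidative phosphorylation subunits were mostly not called (48 of 63, with 5 up and 10 down, or 6 down without control replicate 2). Mitochondrial import and dynamics genes rose in 11 and fell in 4 of 43 cases.

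Cholesterol genes fell in 25 of 43 cases and rose in 4 (median -0.25). The exporters Abca1 and Abcg1 fell by 1.04 and 0.85. Sphingolipid and phospholipid genes rose in 12 and fell in 14 of 43 cases, with the sphingosine-1-phosphate phosphatase Sgpp1 falling by 1.14 and the phospholipase Pla2g7, which inactivates platelet-activating factor, rising by 0.39. In nucleotide and one-carbon metabolism 10 rose and 14 fell of 41. Purine nucleoside phosphorylase (Pnp) fell from 70.1 ± 3.14 to 24.1 ± 1.59 FPKM and methionine synthase (Mtr) from 31.3 ± 2.03 to 13.8 ± 0.922 FPKM.

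The endoplasmic reticulum stood apart from the cytosol. Of 60 tested chaperone, translocation and unfolded protein response genes 37 fell and 3 rose (median -0.24), whereas cytosolic chaperones rose. The calcium-binding chaperone Calr fell from 404 ± 10.9 to 244 ± 12.3 FPKM and the disulfide isomerases Pdia4 and Pdia6 by 0.92 and 0.66. The transcription factor Xbp1 fell by 0.34 and Ddit3 (CHOP) rose by 0.23. Ppp1r15a (GADD34), which returns translation after stress, was the largest rise of this list, from 18.8 to 52.0 FPKM.

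Golgi and coat genes were balanced (12 up and 11 down of 47), with the COPII subunit Sec24d rising from 14.5 ± 0.189 to 41.4 ± 3.55 FPKM. Rab GTPases rose in 9 and fell in 10 of 40 cases, among them the exchange factor gene Rab3il1, which fell from 49.6 to 19.4 FPKM. The Golgi and Rab counts were near the shares of all tested genes, 22.2% higher and 25% lower. Lysosomal genes rose in 14 and fell in 21 of 56 cases. The endolysosomal channel Mcoln2 rose from 12.4 ± 0.665 to 38.1 ± 0.667 FPKM and the proton pump subunits Atp6v1h and Atp6v1a by 1.12 and 0.49, while the cathepsins Ctss and Ctsb fell by 0.37 and 0.22.

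The actin list mostly fell, while the microtubule list was divided, with more rises than falls. Actin cytoskeleton genes fell in 37 of 52 cases and rose in 6 (median -0.24). Actb, β-actin (Entrez 11461, chromosome 5, 142903115 to 142907976), was at 3691, 3704 and 3803 FPKM in the control libraries and 2431, 2235 and 2326 FPKM in the 15d-PGJ2 libraries, with no overlap. The Arp2/3 subunit Actr3 fell from 631 ± 23.3 to 407 ± 6.81 FPKM, the coronin Coro1a from 471 ± 20.4 to 259 ± 18.5 FPKM and the motor Myo1e from 81.0 to 38.2 FPKM. Ezr, which ties actin to the membrane (Entrez 22350, chromosome 17, 6738131 to 6782780), rose against this movement and was at 9.55, 8.68 and 8.07 FPKM in the control libraries and 29.1, 32.2 and 27.6 FPKM in the 15d-PGJ2 libraries. Tubulins and microtubule motors rose in 14 of 40 cases and fell in 6, and 20 were not called. Their median was 0.08, against -0.02 for all tested genes, of which 22.2% rose and 25% fell. Tuba4a rose from 7.32 ± 0.543 to 36.5 ± 0.782 FPKM, Tubb4b from 48.3 to 110 and the dynein heavy chain Dync1h1 from 69.7 to 129 FPKM, and the abundant Tuba1b fell from 272 to 199 FPKM.

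**Figure D5:**
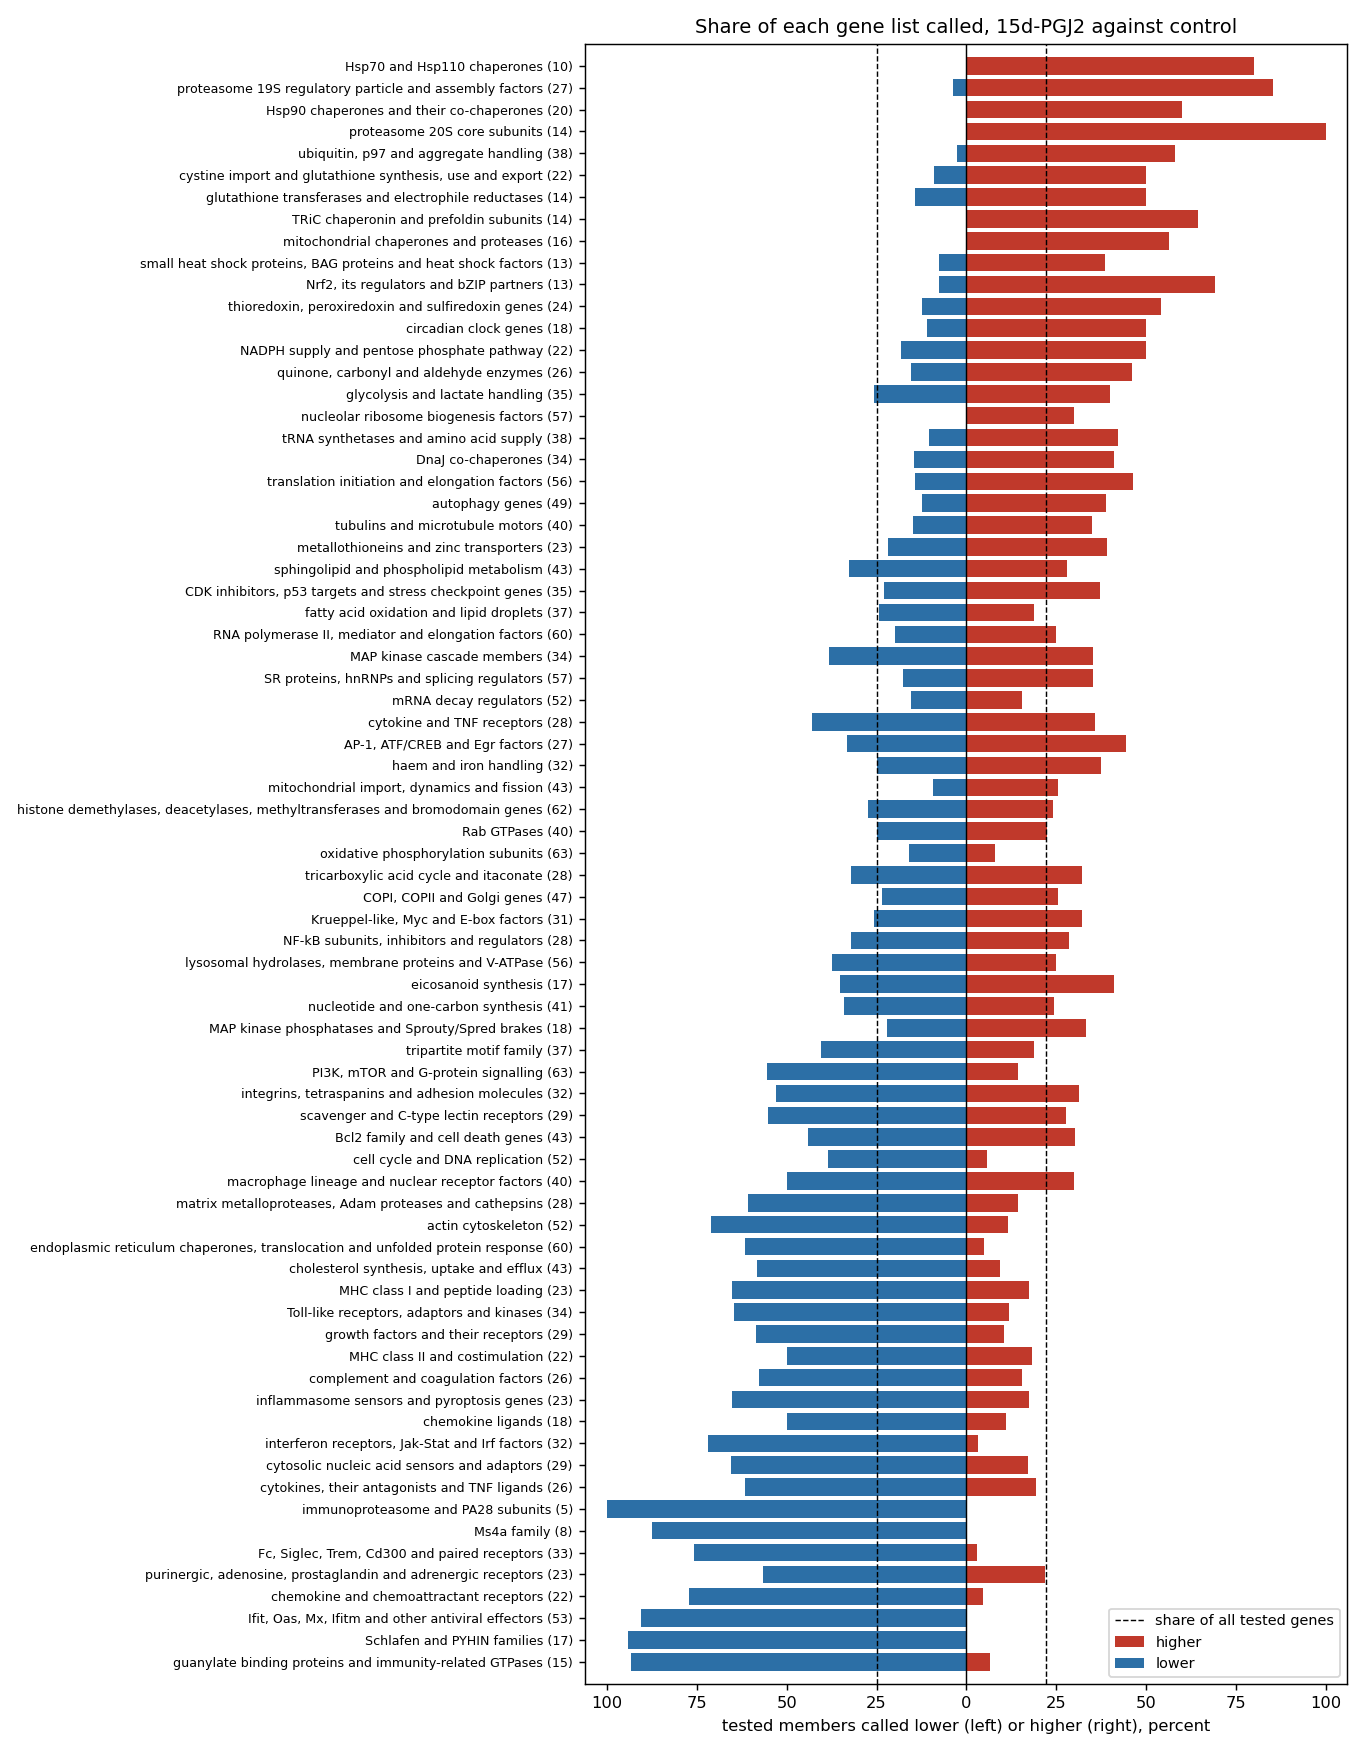
Share of the tested members of each gene list called lower (blue, to the left) or higher (red, to the right) with 15d-PGJ2 than in control, in percent. Lists are ordered by their median log2 fold change with the number tested in brackets, and dashed lines give the shares of all tested genes, 25% lower and 22.2% higher.

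The labelled cell type was checked against its markers. All 14 macrophage markers were tested and present in every library, and all 14 fell, with a summed level of 9961 to 10330.3 FPKM in the controls and 7929 to 8310.3 FPKM with 15d-PGJ2. In bulk RNA, fewer cells of a type and less RNA per cell cannot be told apart. Markers of other cells also moved. All 7 tested stromal markers fell, with a summed level over 13 listed markers of 41.2 to 48.3 FPKM in the controls and 9.61 to 11.6 FPKM with 15d-PGJ2, and so did 8 of 9 tested markers of epidermis and hair follicle, while 1 rose, with no rise called without any 1 control library or without 15d-PGJ2 replicate 2 or 3 (33.5 to 37.4 FPKM in the controls and 4.52 to 6.76 FPKM with 15d-PGJ2). Of 13 listed epidermal markers 9 were at 0 in all 15d-PGJ2 libraries, among them Krt1, Krt5, Krt14 and Lor, and none was at 0 in all controls; 9 were at 0 in all 15d-PGJ2-PC libraries as well. The 3 tested erythroid markers fell (19.9 to 31.9 FPKM in the controls and 0.450 to 0.900 FPKM with 15d-PGJ2), and the 4 listed adipocyte markers summed to 0.810 to 1.25 FPKM in the controls and 0 to 0 FPKM with 15d-PGJ2. For the stromal collagen gene Col3a1 the 15d-PGJ2-PC libraries had 0.0300, 0.10 and 0.190 FPKM beside 6.67, 7.93 and 6.77 in the controls, and for the haemoglobin gene Hba-a1 0.330, 0 and 0 beside 22.4, 12.6 and 14.3. Without any 1 control library, only 3 of the stromal, 1 of the epidermal and 0 of the erythroid genes remained called lower, as most of these genes then no longer reached 1 FPKM in 3 libraries. Most of them were thus tested only through the controls, where they are high. How many of the tested ones fell was largely fixed by that filter and is no separate result. Neutrophil markers summed to 103 to 109 FPKM in the controls and 79.1 to 88.6 FPKM with 15d-PGJ2, those of dendritic cells to 31.8 to 32.7 FPKM in the controls and 20.6 to 23.6 FPKM with 15d-PGJ2, of B cells, nearly all of it from Cd79b, to 39.1 to 46.8 FPKM in the controls and 14 to 17.8 FPKM with 15d-PGJ2 and of osteoclasts to 162 to 175 FPKM in the controls and 123 to 127 FPKM with 15d-PGJ2. Markers of T and NK cells (2.38 to 3.25 FPKM in the controls and 2.12 to 2.91 FPKM with 15d-PGJ2) and of mast cells and basophils (0.290 to 0.420 FPKM in the controls and 0.240 to 0.390 FPKM with 15d-PGJ2) were low in both groups, those of megakaryocytes overlapped (48.1 to 51.9 FPKM in the controls and 45.7 to 57.6 FPKM with 15d-PGJ2), and those of endothelial cells, monocytes and skeletal muscle summed to at most 43.8, 11.2 and 3.35 FPKM. Pax5 of B cells, Ms4a2 of mast cells and Gp1bb of megakaryocytes were at 0 in all 6 libraries. The exact 2-sided permutation test of a summed level cannot go below 0.1 with 3 libraries against 3. The part of these other cells in the falls of surface, matrix and growth factor genes was not tested.

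15d-PGJ2 and 15d-PGJ2-PC were given at the same dose for the same time, and the direct test between them called 2335 of 11309 genes (20.6%), 939 higher (8.30%) and 1396 lower (12.3%) with 15d-PGJ2. Chaperone genes were higher with 15d-PGJ2 than with the related compound in 6 of 10 Hsp70 and Hsp110 cases and in 11 of 20 Hsp90 cases, with 0 lower. Hspb1 had 13.1, 18.2 and 20.9 FPKM in the 15d-PGJ2-PC libraries, a difference of 3.34 (SE 0.20, adjusted p = 3.71e-06), and Hsp90aa1 had 266, 275 and 299.6 FPKM (difference 1.42, SE 0.08). In both genes the 15d-PGJ2-PC libraries lay between the controls and the 15d-PGJ2 libraries without overlap. Core proteasome genes were higher with 15d-PGJ2 in 10 of 14 cases by smaller amounts, such as 0.26 for Psma5. Antiviral effectors were lower in 45 of 53 cases with 0 higher. So were 14 of 15 guanylate-binding protein and immunity-related GTPase genes, where Irgq was higher. Mx1 was at 26.6, 25.8 and 26.0 FPKM with 15d-PGJ2-PC. Fc and paired receptors were lower in 23 of 33 cases, endoplasmic reticulum genes in 27 of 60, Toll-like pathway genes in 18 of 34 and actin genes in 19 of 52. The controls are no part of this test.

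For some genes that changed against control the compounds did not differ by this test. The difference was 0.00 for Atf3 (95% interval -0.12 to 0.13, adjusted p = 0.991) and -0.00 for the phosphatase gene Dusp6 (-0.28 to 0.27, adjusted p = 0.99). The polyubiquitin gene Ubb gave 0.09 (95% interval -0.02 to 0.20, adjusted p = 0.261) and Ccnd3 gave -0.09 (-0.27 to 0.10, adjusted p = 0.525). A p above the threshold does not show that the compounds act alike. Spic was at 176, 180.5 and 196 FPKM with 15d-PGJ2-PC, a difference of 0.25 (SE 0.06, adjusted p = 0.0111), and Treml4 was at 21.8, 26.2 and 26.3 FPKM, a difference of 1.07 (SE 0.08, adjusted p = 1.06e-05).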

How the data were processed

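RNA of 9 libraries was measured by RNA sequencing after Trizol extraction and TruSeq library preparation, per the labels' protocols. The authors deposited 1 table of FPKM values with 2 decimals, per the file headers. The submitters' processing notes name build mm10 and BWA as the aligner. A BWA version, the counting tool and whether it used strand were not given in the sources used here. Values were used as deposited, and 23 symbols that a spreadsheet had turned into dates were restored from the Entrez number. Coordinates (GRCm38, the build mm10 names) came from a RefSeq gene table in which 18000 of 18049 genes were found.

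FPKM is no count, so limma 3.58.1 (R 4.3.3) was fitted to log2(FPKM + 1) over all 9 libraries, with an intensity trend and no covariate. Tested genes had at least 1 FPKM in at least 3 libraries. Tests were 2-sided and Benjamini-Hochberg adjusted within each contrast (threshold 0.05); the fit was tested on simulated data. Intervals between the compounds are 95% intervals of that fit. Group values are means ± SD over 3 libraries. Reads behind the FPKM were estimated from transcripts under 900 bases, whose values lay on average 0.121 to 0.141 of a read from a whole read, so the depth is approximate.

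The genes, lists and markers were chosen with earlier results of these data known, and the counts of a list are descriptions without a test of the list. Named genes were the 25 largest rises and falls called without overlap and with a mean of at least 1 FPKM, the 15 largest of each at 100 FPKM or more, up to 5 members of each list with the smallest p and its 2 most abundant tested members, and 35 genes regardless of result. Markers at 0, the marker Cd79b, Irgq, Gpx1, Gpx3 and the uncalled peroxiredoxin genes were named after their values were seen. Some genes taken by the rule, and 1 list, are not reported here. Alternatives changed the pseudocount, the filter, the scaling, the trend, the libraries fitted, the replicate block and the libraries left out.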

Additional observations from a re-analysis of the deposited data

How the results depend on the processing

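The 5 totals given next kept within 1.5 times their value under all 18 alternatives; the numbers of at least 4-fold and 8-fold changes were not recomputed. Genes higher with 15d-PGJ2 numbered 2168 to 2481 when 1 library was left out and 2211 to 2713 under the other alternatives, and genes lower 2476 to 2817 and 2395 to 3020. At least 2-fold rises ranged from 300 to 324 and from 258 to 441, at least 2-fold falls from 340 to 403 and from 306 to 542, and genes that differed from 15d-PGJ2-PC from 1787 to 2375 and from 2052 to 2346. A pseudocount of 0.1 gave the highest numbers of at least 2-fold changes. Same-numbered control and 15d-PGJ2 libraries deviated from their group means with correlations of 0.0395, 0.0173 and 0.0141, and control replicate 3 correlated best with another number, so the numbers were not taken to pair the samples. With the replicate block 2469 genes were higher and 2803 lower, 318 and 390 by at least 2-fold, and 2215 differed from 15d-PGJ2-PC. Of the 268 called genes named in the text, 267 kept their direction and their call under every alternative that gave a value, and Psma6 was the exception given above. Trp53 passed with quantile normalization (adjusted p = 0.015) and without control replicate 2 (0.045), and Prdx3 with quantile normalization (0.0323), with the 6 libraries of the contrast (0.0276) and without 15d-PGJ2-PC replicate 1 (0.0235). Of 3240 counts of list members compared, 88 moved by over 1.5 times, and beside a list the text names the libraries whose omission did so. With a filter of 5 FPKM, which tests fewer genes, the falls numbered 10 among cytokines, 7 among purinergic and lipid receptors and 12 among cell cycle genes, and without a filter 9 growth factor genes rose. With quantile normalization 8 oxidative phosphorylation genes rose and 6 fell. At this depth genes near 1 FPKM rest on few reads, and the share called was lower under 5 FPKM; the cause was not tested. The erythroid, stromal and epidermal calls rest on all 3 controls.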

Other observations

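Clock genes, which the text above does not cover, rose in 9 of 18 tested cases and fell in 2 (median 0.20, against -0.02 for all tested genes). The repressor Cry2 rose from 1.62 ± 0.150 to 4.75 ± 0.931 FPKM, and its groups did not overlap. The output factors Nfil3 and Tef rose by 0.63 and 0.43 and the nuclear receptor Nr1d2 by 0.51. The number that fell was 1 without control replicate 1 or 3, 15d-PGJ2 replicate 2 or 3 or 15d-PGJ2-PC replicate 1, and also without a filter, with a filter of 5 FPKM, with quantile normalization, under median-ratio scaling, with the 6 libraries of the contrast and with the replicate block.

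Genes often used as references for quantitative PCR moved in these libraries. Gapdh rose from 743 ± 19.9 to 919 ± 12.2 FPKM (log2 fold change 0.31, SE 0.03, adjusted p = 7.25e-06), while Actb fell by 0.68 (SE 0.03, adjusted p = 3.33e-08) and B2m by 0.14 (SE 0.02, adjusted p = 0.000864). The ratio of mean FPKM of Actb to Gapdh was therefore not the same in the groups. The translation factor Eef1g, at 284 and 378 FPKM, rose by 0.41.

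Several abundant transcripts outside the lists had large falls. Asb2, a subunit of a ubiquitin ligase that degrades filamins, was at 175, 179.5 and 175 FPKM in the control libraries and 62.8, 55.8 and 57.7 FPKM in the 15d-PGJ2 libraries. Kctd12 fell from 140.4 ± 1.47 to 48.2 ± 1.69 FPKM and Themis2, an adaptor of Toll-like receptor signalling, from 147 ± 10.01 to 39.8 ± 4.11 FPKM, and for all 3 genes the groups did not overlap. Eicosanoid genes rose in 7 and fell in 6 of 17 cases. Ptgs1, cyclooxygenase 1, fell from 5.71 to 1.54 FPKM and Alox5ap, which presents arachidonic acid to 5-lipoxygenase, rose from 171 to 226 FPKM.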
